A study of Ovis aries with 12 samples.

Results

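The genes described here encode proteins of the mitochondrial ribosome and were taken as every gene whose symbol is MRPL or MRPS followed by a number, with or without a closing letter. The rule found 76 of the 21257 genes with a value, 49 with large subunit symbols (MRPL) and 27 with small subunit symbols (MRPS). Their transcripts were measured by RNA sequencing in Tan sheep (Ovis aries) at the age of 5 months, with 3 libraries from each of 4 diets and 12 in all. The diets were a basal diet and the same diet with 0.5%, 1% or 2% succinate. The trial held 36 sheep, 9 per diet. No label ties a library to its own sheep, so every p-value measures only the spread between these libraries, which may be technical. The labels name no tissue, while the series title concerns the proliferation of rumen epithelial cells.

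Mitochondria carry ribosomes of their own, which translate the few mRNAs encoded by mitochondrial DNA, all of them for subunits of the respiratory chain and ATP synthase. The RNA of these ribosomes is made inside the mitochondrion, but all of their proteins are encoded in the nucleus, made in the cytosol and imported. Many have a counterpart in bacterial ribosomes, and others are found only in mitochondria. The large subunit holds the peptidyl transferase centre and the exit tunnel, which faces the inner membrane, and the small subunit holds the decoding centre. Roles given below were established mainly in human, mouse, yeast or bacterial ribosomes and not in sheep. Succinate, the compound added to the diets, is an intermediate of the tricarboxylic acid cycle inside the same organelle.

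The libraries held 15489883 to 18717309 reads assigned to genes, and reads of genes encoded by mitochondrial DNA took 2.90% to 6.64% of them. All 7 smooth muscle markers were well above the filter, with summed levels of 30300 to 55469 FPKM (fragments scaled to gene length and to the reads of the library) over the libraries. The 10 markers of stratified epithelium summed to 0.448 to 0.838 FPKM in the 1% libraries and to 0.123 to 0.293 FPKM in the basal diet libraries. KRT5, KRT4, KRT15, TP63 and IVL were at 0 in all 12 libraries, so defining markers of a stratified epithelium were at or near 0 in this RNA. In such bulk RNA, fewer cells of a type and less RNA per cell cannot be told apart. Replicates 2 and 3 of the 1% diet had the lowest shares of reads from these genes, as given below. Results that rest on these 2 libraries are given with and without them.

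Transcripts of the mitochondrial ribosome were present at moderate levels throughout. Of the 76 genes, 75 reached at least 1 FPKM in at least 3 libraries and were tested. Their mean level over the 12 libraries had a median of 27.4 FPKM, against 8.27 FPKM for all 12095 genes tested. Of the 75 genes, 42 had a mean between 20 and 60 FPKM. The median was 29.3 FPKM for the tested large subunit genes and 21.2 FPKM for the small subunit genes. The genes were short, with lengths of 432 to 3560 bases in the file and a median of 1000, against a median of 3135 bases for all genes tested. They lay on 23 chromosomes, with 12 on chromosome 3, 9 on chromosome 1 and 8 on chromosome 11.

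The most abundant transcript was that of MRPS33, a small subunit protein with no bacterial counterpart (chromosome 4, 105683072 to 105692450), at 102 ± 25.1 FPKM (SD, n = 12). MRPL20, the counterpart of bacterial L20, which takes part in early assembly of the bacterial large subunit (chromosome 12, 50450880 to 50453852), followed at 84.7 ± 15.6 FPKM. MRPS10, the counterpart of bacterial S10, averaged 61.8 ± 12.2 FPKM. MRPL53, a protein found only in mitochondria, averaged 61.4 ± 5.95 FPKM. MRPS10 and MRPL53 did not differ beyond their spread, and both lay below MRPL20 and MRPS33.

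At the low end, MRPL38, a protein of the central protuberance of the large subunit (chromosome 11, 55067559 to 55072060), averaged 3.34 ± 0.903 FPKM (SD, n = 12). MRPL36 averaged 5.64 ± 1.84 FPKM, MRPL33 averaged 6.24 ± 1.17 FPKM and MRPL55 averaged 6.40 ± 1.47 FPKM. MRPL33 and MRPL36 are the counterparts of 2 small bacterial proteins, L33 and L36. The levels of MRPL36, MRPL33 and MRPL55 did not differ beyond their spread. MRPL37, a large subunit protein found only in mitochondria (chromosome 5, 52960150 to 52964608, 1296 bases), had 0 reads in all 12 libraries. A count of 0 allows up to 3 reads, or 0.124 to 0.149 FPKM in these libraries, by counting error alone. Whether the annotation used in the counting could receive reads of MRPL37 was not tested, so the 0 need not mean an absent transcript.

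**Figure D1:**
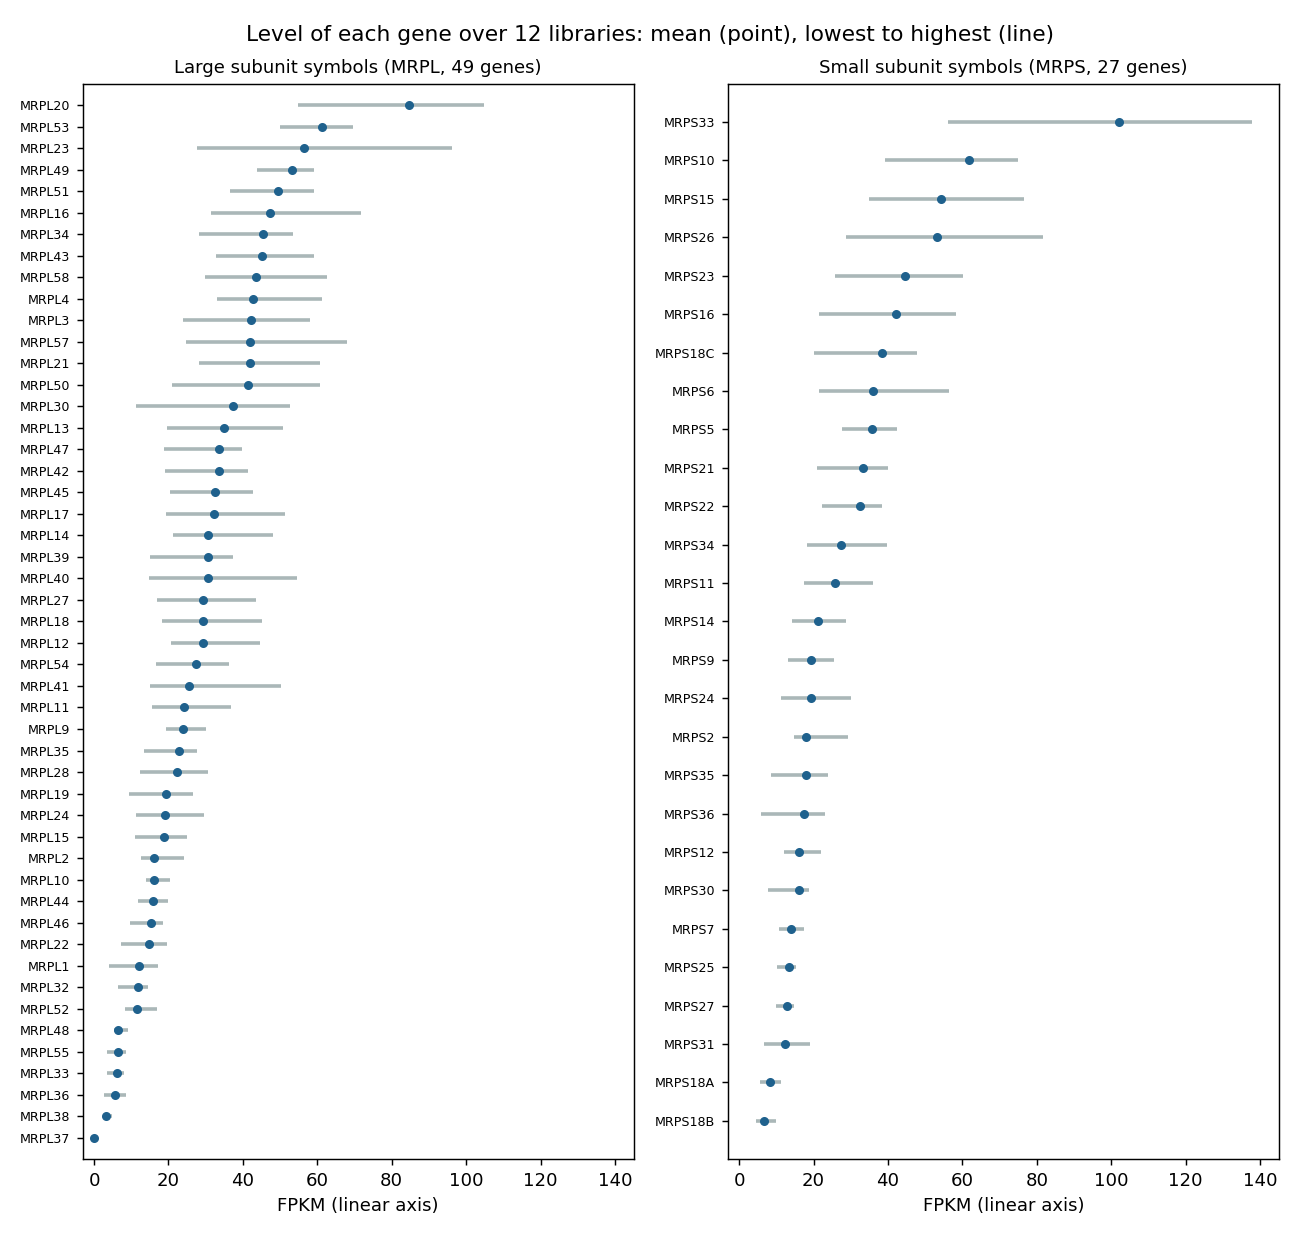
Level of each of the 76 genes in FPKM on a linear axis, with large subunit symbols at left and small subunit symbols at right; the point is the mean and the line runs from the lowest to the highest of the 12 libraries. MRPS33 at 102 and MRPL20 at 84.7 FPKM lead, 42 genes lie between 20 and 60 FPKM, and MRPL37 is at 0.

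Some of these genes share their position with another gene, and the strand setting of the counting is not given in the sources used here. Of the 76, 12 overlapped another gene, 10 of them on the opposite strand and 2 on the same strand. MRPS18A lay wholly inside RSPH9 and MRPL41 wholly inside PNPLA7. MRPL33 shared 76.1% of its span with RBKS, and MRPS6 shared 50.8% of its span with SLC5A3 on the same strand. Their reads and those of their neighbours may not be fully separated. The levels of MRPS33, MRPL13, MRPL15 and MRPL16 are uncertain to the extent that reads fell on gene copies, which are described further below.

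Together, the 76 genes took 0.280%, 0.262% and 0.228% of the reads in the basal diet libraries, in the order of replicates 1 to 3. At 0.5% succinate the shares were 0.244%, 0.2995% and 0.232%, at 1% they were 0.240%, 0.166% and 0.171%, and at 2% they were 0.248%, 0.240% and 0.244%. The lowest 2 shares were thus those of replicates 2 and 3 of the 1% diet, and the third library of that diet lay within the range of the basal diet. Counting error was small: the 95% Wilson interval ran from 0.164% to 0.169% for the lowest library and from 0.297% to 0.302% for the highest. By diet the shares averaged 0.257% ± 0.0263, 0.259% ± 0.0359, 0.193% ± 0.0414 and 0.244% ± 0.0037 (SD, n = 3 each), with the succinate dose increasing from 0 to 2%.

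The same values were then counted gene by gene. Replicates 2 and 3 of the 1% diet were already known to have the lowest summed shares of these genes. The counts therefore describe those low shares again, give them no separate support, and stand beside other genes as a description only. Of the 75 tested genes, 65 (86.7%) had their lowest level in replicate 2 or 3 of the 1% diet, 32 in replicate 2 and 33 in replicate 3. Among all genes tested, this share was 30.3%, and among the 1241 other genes with lengths between 800 and 1374 bases, the lower and upper quartiles of the lengths of these genes, it was 62.7%. Both libraries lay below each of the other 10 for 48 of the 75 genes (64.0%), against 14.7% of all genes and 39.4% of those of similar length. The highest library was most often replicate 2 of the 0.5% diet, for 37 genes, and then replicate 1 of the basal diet, for 15 genes.

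The median deviation of the 75 genes from their own means, on the log2(FPKM + 1) scale, was −0.52 in replicate 2 and −0.48 in replicate 3 of the 1% diet. Other genes of similar length had median deviations of −0.37 and −0.39 in the same libraries. In replicate 2 of the 0.5% diet the median was 0.34 for the mitochondrial ribosome and 0.28 for other genes of similar length. In these libraries the deviation of all other genes moved with gene length: its Spearman correlation with length was 0.57 and 0.43 in replicates 2 and 3 of the 1% diet and −0.63 in replicate 2 of the 0.5% diet, each across 12020 genes that share a library. It was between −0.37 and 0.28 in the other 9 libraries. In each comparison below, the genes of the mitochondrial ribosome were therefore set beside other genes of similar length, and the comparison was repeated with each library's trend on length removed.

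**Figure D2:**
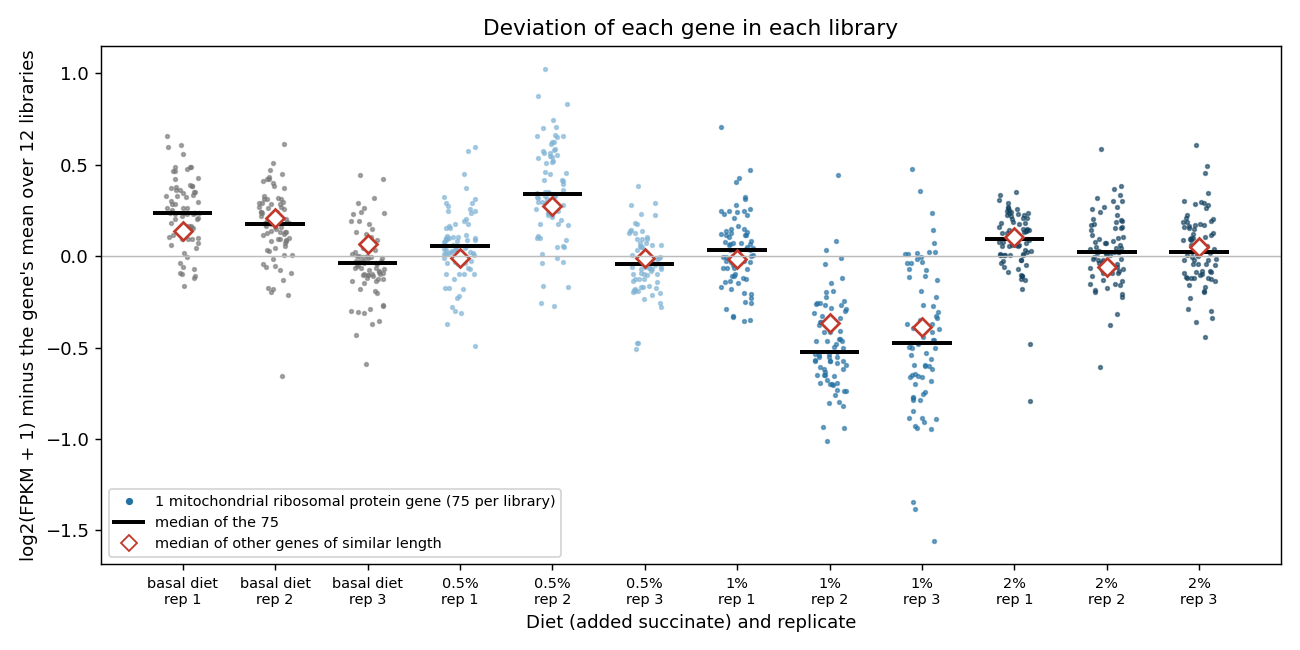
Deviation of each of the 75 tested genes in each library, as log2(FPKM + 1) minus the gene's mean over 12 libraries; bars are medians of the 75, and open diamonds are medians of the 1241 other genes of similar length. Replicates 2 and 3 of the 1% diet have medians of −0.52 and −0.48, replicate 2 of the 0.5% diet has 0.34, and the diamonds move the same way.

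The first question was whether the mitochondrial ribosome differed at 1% succinate. Lower values prevailed: 72 of 75 genes averaged less in the 1% libraries than in the basal diet libraries, against 54.6% of all genes tested, and their median log2 difference was −0.45. No gene passed the adjusted threshold of 0.05 in the limma fit over all libraries, among the 75 or among all 12095 genes tested (0.00%), and the lowest adjusted p among the 75 was 0.1975. At an unadjusted p under 0.05, 33 of the 75 (44.0%) were lower and 0 were higher, against 12.1% lower and 7.33% higher among all genes. A limma-voom fit of the reads behind the FPKM values also passed 0 genes (0.00%), with 30 of the 75 at an unadjusted p under 0.05, against 18.7% of all genes. The libraries of the 1% diet and the basal diet did not overlap for 18 of the 75 genes, all lower at 1%, against 10.7% of all genes lower and 7.14% higher. Markers of some other cells stood apart in the same contrast. The 6 macrophage markers with a value summed to 63.4 to 88.7 FPKM in the 1% libraries and to 104.6 to 170.9 FPKM in the basal diet libraries. The 6 markers of dividing cells summed to 6.92 to 37.4 FPKM in the 1% libraries and to 2.55 to 4.22 FPKM in the basal diet libraries. No gene of either list was at 0 in all libraries, and the part of these cells in the result was not tested. The sums for smooth muscle, adipocytes, skeletal muscle, red blood cells, and enteric neurons and glia at 1% overlapped the basal diet.

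Other genes of like length had low values too. The median log2 difference of the 1241 other genes of similar length was −0.39, of which 1071 were lower, and 423 of these genes were lower at an unadjusted p under 0.05. The median of all genes tested was −0.04. After the removal of the length trend of each library, the median of the 75 genes was −0.04, with 42 lower and 33 higher, against 49.9% of all genes lower. At an unadjusted p under 0.05, 4 were then lower and 4 higher, against 5.76% and 6.70% of all genes. None of the 75 and 0.00% of all genes passed the adjusted threshold.

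Large and small subunit genes had medians close to each other at 1%. Large subunit genes had a median log2 difference of −0.44, with 46 of 48 lower, and small subunit genes one of −0.45, with 26 of 27 lower. Split by length, the shortest 25 genes (432 to 847 bases) had a median of −0.51, against −0.56 for other genes of those lengths. The middle 25 (848 to 1174 bases) had −0.46 against −0.42, and the longest 25 (1185 to 3560 bases) had −0.37 against −0.14. All of the longest 25 but MRPL10, MRPS35, MRPS27 and MRPS21 were at most 1893 bases. The 5387 other genes of that wide window were not matched to them in length, so the gap at −0.14 cannot be set apart from length. Across the 75 genes, the difference had a Spearman correlation of 0.22 with length, against 0.55 across the 12020 other genes.

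**Figure D3:**
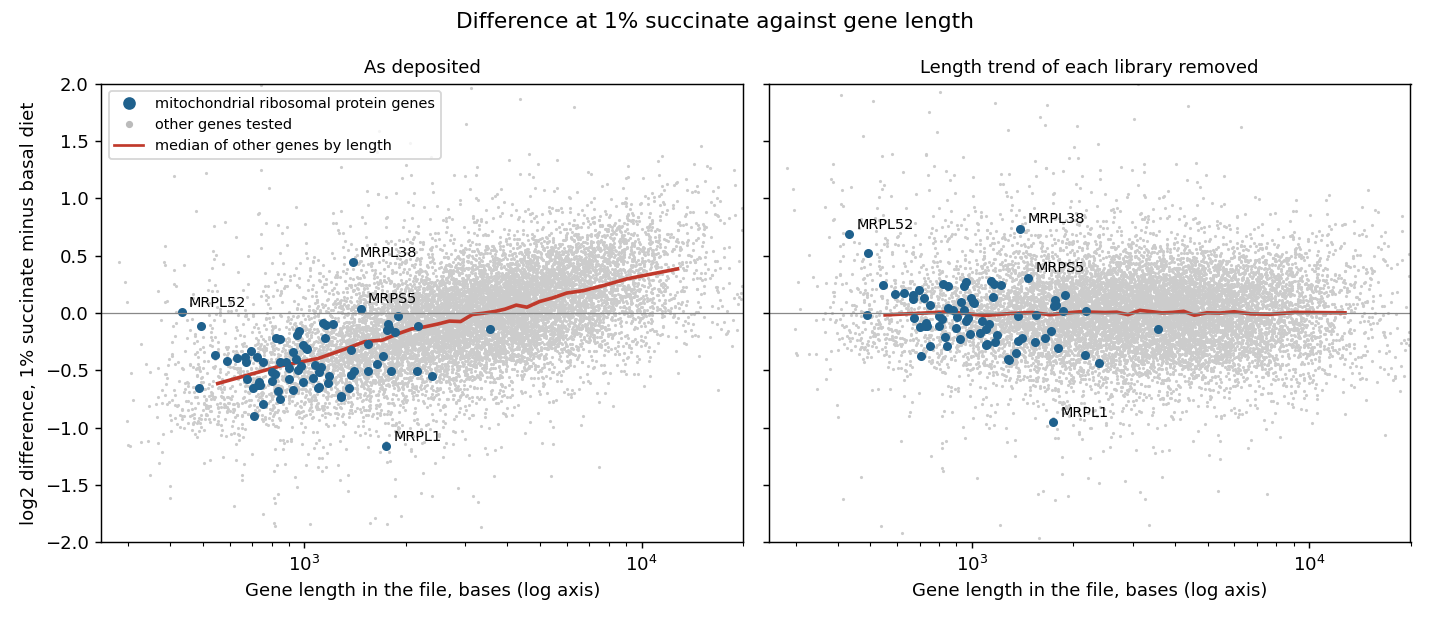
Difference between the 1% diet and the basal diet on the log2(FPKM + 1) scale against gene length on a log axis, as deposited at left and after removal of each library's length trend at right; blue points are the 75 tested genes, grey points are other genes (those beyond the axes are not drawn), and the red line is the median of other genes in bins of length. The blue points have a median of −0.45 at left. The longest 25 have −0.37 there, against −0.14 for other genes of 1185 to 3560 bases, not matched in length within that window. The median of all 75 is −0.04 at right, with MRPL1 below and MRPL38 and MRPL52 above.

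MRPL1 had the most negative difference. It is the counterpart of bacterial L1, which forms the mobile stalk beside the exit site for transfer RNA (chromosome 6, 93294774 to 93364833, 1746 bases). Its levels were 12.7, 5.18 and 3.91 FPKM in the 1% libraries, against 17.3, 14.2 and 15.7 FPKM in the basal diet libraries. All 3 values at 1% lay below the basal diet, and replicates 2 and 3 lay furthest from it. The log2 difference was −1.16 (SE 0.29, adjusted p = 0.1975). After removal of the length trend it was −0.95 (SE 0.27, adjusted p = 0.385). The levels were 12.2, 14.2 and 11.5 FPKM at 0.5% and 14.8, 11.6 and 13.2 FPKM at 2%.

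MRPS23 had the smallest p at 1%. It encodes a small subunit protein found only in mitochondria (chromosome 11, 8345994 to 8351177). Its levels were 42.0, 25.7 and 29.8 FPKM in the 1% libraries, against 60.2, 52.04 and 51.2 FPKM in the basal diet libraries, with no overlap. The log2 difference was −0.75 (SE 0.19, adjusted p = 0.1975), and −0.29 (SE 0.13) with the length trend removed. MRPS23 was also at 43.7, 44.2 and 39.9 FPKM in the 2% libraries, below all 3 basal diet libraries.

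MRPL32, the counterpart of bacterial L32, which is matured by a protease of the mitochondrial inner membrane before it joins the ribosome in yeast and mouse, was at 10.5, 8.23 and 6.33 FPKM in the 1% libraries and at 14.4, 13.9 and 12.02 FPKM in the basal diet libraries. Its log2 difference was −0.65 (SE 0.17). MRPL35, the counterpart of bacterial L35, was at 22.9, 15.9 and 13.5 FPKM in the 1% libraries, against 25.9, 27.6 and 26.9 FPKM in the basal diet libraries, a log2 difference of −0.63 (SE 0.19). The differences were −0.27 (SE 0.14) for MRPL32 and −0.11 (SE 0.13) for MRPL35 with the length trend removed. For both genes the groups did not overlap, and replicate 1 was the highest of the 1% libraries.

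MRPL20, the second most abundant transcript, was at 85.2, 54.8 and 60.4 FPKM in the 1% libraries and at 104.9, 103.7 and 92.5 FPKM in the basal diet libraries. The log2 difference was −0.60 (SE 0.18, adjusted p = 0.1975), or −0.09 (SE 0.11) with the length trend removed. MRPS33 was at 107.2, 56.2 and 60.4 FPKM in the 1% libraries, against 137.8, 111.0 and 99.1 FPKM in the basal diet libraries, so replicate 1 lay within the range of the basal diet. Its log2 difference was −0.68 (SE 0.25), or −0.21 (SE 0.15) with the length trend removed.

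Replicate 1 of the 1% diet differed from the other replicates of that diet for most genes. It lay within the range of the 3 basal diet libraries for 42 genes, below it for 26 and above it for 7. This count was not made over other genes, so it is not read as particular to the mitochondrial ribosome. Relative to the basal diet mean, the median gene stood at 91.1% in replicate 1, 61.5% in replicate 2 and 64.0% in replicate 3. Without replicates 2 and 3, the median log2 difference at 1% was −0.11, against −0.15 for other genes of similar length, with 1 gene lower and 1 higher at an unadjusted p under 0.05, against 3.06% of all genes. That fit leaves 1 library at 1%, assumed to vary like those of the other diets.

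Without replicate 1, 36 of the 75 genes (48.0%) passed the adjusted threshold in the limma fit, 35 lower and 1 higher, against 21.8% of all genes and 33.4% of other genes of similar length. The lower genes included MRPL1 (−1.60, SE 0.17, adjusted p = 0.00436), MRPL30 (−1.29, SE 0.26, adjusted p = 0.00794), MRPS36 (−1.20, SE 0.23, adjusted p = 0.00744) and MRPL19 (−1.09, SE 0.16, adjusted p = 0.00469). The single higher gene was MRPL38 (0.67, SE 0.20, adjusted p = 0.0328). These calls thus depend on which libraries of the 1% diet enter the fit. Reads of genes encoded by mitochondrial DNA took 6.14%, 3.73% and 2.90% of the 1% libraries, against 6.64%, 4.47% and 5.15% of the basal diet libraries, in the order of replicates 1 to 3. The part of these shares in the result was not tested.

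The mean of replicates 2 and 3 ranged widely among the genes. It stood at 28.9% of the basal diet mean for MRPL1, 40.8% for MRPL30, 41.8% for MRPS36, 44.5% for MRPL19, 45.3% for MRPL23 and 47.4% for MRPS16. MRPL30 and MRPL19 are counterparts of bacterial large subunit proteins, and MRPS16 is the counterpart of bacterial S16 and a gene of inherited mitochondrial translation defects in humans. MRPS36, in spite of its symbol, is known as a part of the 2-oxoglutarate dehydrogenase complex of the tricarboxylic acid cycle. Its levels were 22.3, 10.2 and 5.76 FPKM in the 1% libraries, against 21.8, 17.3 and 18.3 FPKM in the basal diet libraries. Replicate 1 was above all basal diet libraries and the other replicates were below them.

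A few genes did not share the low values. MRPL38 was at 2.64, 4.79 and 4.91 FPKM in the 1% libraries and at 2.81, 2.76 and 2.46 FPKM in the basal diet libraries. Replicates 2 and 3 were the highest of its 12 libraries, and their mean stood at 181% of the basal diet mean. The log2 difference over the 3 libraries was 0.44 (SE 0.22, adjusted p = 0.282), or 0.74 (SE 0.25, adjusted p = 0.385) with the length trend removed. MRPL38 had only 54 to 114 reads per library.

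MRPS5, the counterpart of bacterial S5 near the mRNA entry channel, was at 27.7, 37.6 and 36.01 FPKM in the 1% libraries and at 37.98, 31.3 and 29.2 FPKM in the basal diet libraries. The groups overlapped, and the log2 difference was 0.04 (SE 0.16), or 0.31 (SE 0.18) with the length trend removed. The third gene with no lower mean at 1% was MRPL52, the shortest of the tested genes at 432 bases, with a log2 difference of 0.01 (SE 0.26). MRPL52 was at 16.0, 8.22 and 8.32 FPKM in the 1% libraries and at 10.7, 12.03 and 8.48 FPKM in the basal diet libraries. Replicates 2 and 3 thus lay below all 3 basal diet libraries and replicate 1 above them. Without replicate 1 the difference of MRPL52 was −0.29 (SE 0.23). With the length trend removed and all libraries in the limma fit, it was 0.69 (SE 0.17, adjusted p = 0.385).

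Other tested genes at the extremes of length were described to show the length relation. MRPS18C (488 bases) had a log2 difference of −0.66 (SE 0.24) at 1%, and MRPL33 (493 bases) one of −0.11 (SE 0.19). The longest, MRPL10 (3560 bases), MRPS35 (2388 bases) and MRPS27 (2179 bases), had differences of −0.14 (SE 0.14), −0.55 (SE 0.24) and −0.12 (SE 0.15). MRPS27 carries pentatricopeptide repeats, a fold of RNA-binding proteins. Removal of the length trend gave −0.01 for MRPS18C, 0.53 for MRPL33, −0.14 for MRPL10, −0.44 for MRPS35 and 0.02 for MRPS27. MRPL33 had 26 to 74 reads per library.

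Genes of the functional sites were followed by role. MRPL10 and MRPL12 form the stalk that recruits translation factors, and MRPL12 also binds the mitochondrial RNA polymerase in human cells. MRPL12 was at 26.3, 20.6 and 22.5 FPKM in the 1% libraries, against 30.8, 30.5 and 27.1 FPKM in the basal diet libraries, with no overlap (log2 difference −0.34, SE 0.18). MRPL10 was at 16.0, 13.9 and 15.6 FPKM in the 1% libraries, against 16.9, 18.02 and 15.7 FPKM in the basal diet libraries, with overlap. MRPL11, at the base of the stalk, was at 19.1, 18.3 and 15.6 FPKM in the 1% libraries and at 28.0, 25.2 and 24.7 FPKM in the basal diet libraries (−0.53, SE 0.17). The difference of MRPL10, given above, was −0.14 (SE 0.14), and none of the 3 passed the adjusted threshold. Their differences without the length trend were −0.14 (SE 0.15) for MRPL10, 0.09 (SE 0.12) for MRPL12 and −0.06 (SE 0.15) for MRPL11, so the direction of MRPL12 turned. Whether the 3 genes differ from each other was not tested.

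MRPL3, whose bacterial counterpart L3 reaches the peptidyl transferase centre, had a log2 difference of −0.54 (SE 0.26) at 1%. MRPL45, which lies at the exit of the tunnel and ties the ribosome to the inner membrane, was at 33.3, 21.5 and 20.5 FPKM in the 1% libraries and at 38.2, 42.9 and 36.4 FPKM in the basal diet libraries. Its difference was −0.65 (SE 0.20), and −0.35 (SE 0.15) with the length trend removed. MRPL44, a protein related to ribonuclease III and a gene of human infantile cardiomyopathy, had a difference of −0.32 (SE 0.15). MRPL58, which releases peptides from stalled ribosomes, had one of −0.43 (SE 0.20). These became −0.25 for MRPL3, −0.03 for MRPL44 and 0.02 for MRPL58 with the length trend removed.

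In the small subunit, MRPS12, the counterpart of the decoding centre protein S12, had a difference of −0.28 (SE 0.19) at 1%. MRPS7, MRPS22 and MRPS34, with MRPS16, are genes of inherited mitochondrial translation defects in humans. Their differences were −0.22 (SE 0.18) for MRPS7, −0.47 (SE 0.15) for MRPS22, −0.31 (SE 0.19) for MRPS34 and −0.65 (SE 0.27) for MRPS16. MRPS22 was at 30.5, 22.3 and 22.3 FPKM in the 1% libraries, against 37.4, 35.1 and 31.9 FPKM in the basal diet libraries, with no overlap. After removal of the trend, MRPS12 (0.13), MRPS7 (0.14) and MRPS34 (0.09) had differences above 0, and those of MRPS22 (−0.10) and MRPS16 (−0.13) were closer to 0.

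The symbols do not always tell the subunit. MRPS30 and MRPS18A are known to sit in the large subunit, and MRPS18A, MRPS18B and MRPS18C are 3 relatives of the single bacterial S18. MRPS30 had a log2 difference of −0.50 (SE 0.23) at 1%. MRPS18C had −0.66 (SE 0.24), as given above, MRPS18A had −0.09 (SE 0.21) and MRPS18B had −0.09 (SE 0.23). Without the length trend, the values were −0.25 for MRPS30, −0.01 for MRPS18C, 0.11 for MRPS18A and 0.28 for MRPS18B. The 3 relatives ranked by mean level as MRPS18C, MRPS18A and MRPS18B in the basal diet libraries, at 44.6 ± 4.58, 9.54 ± 1.91 and 7.01 ± 0.239 FPKM (SD, n = 3 each), and whether their responses differ from each other was not tested.

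**Figure D4:**
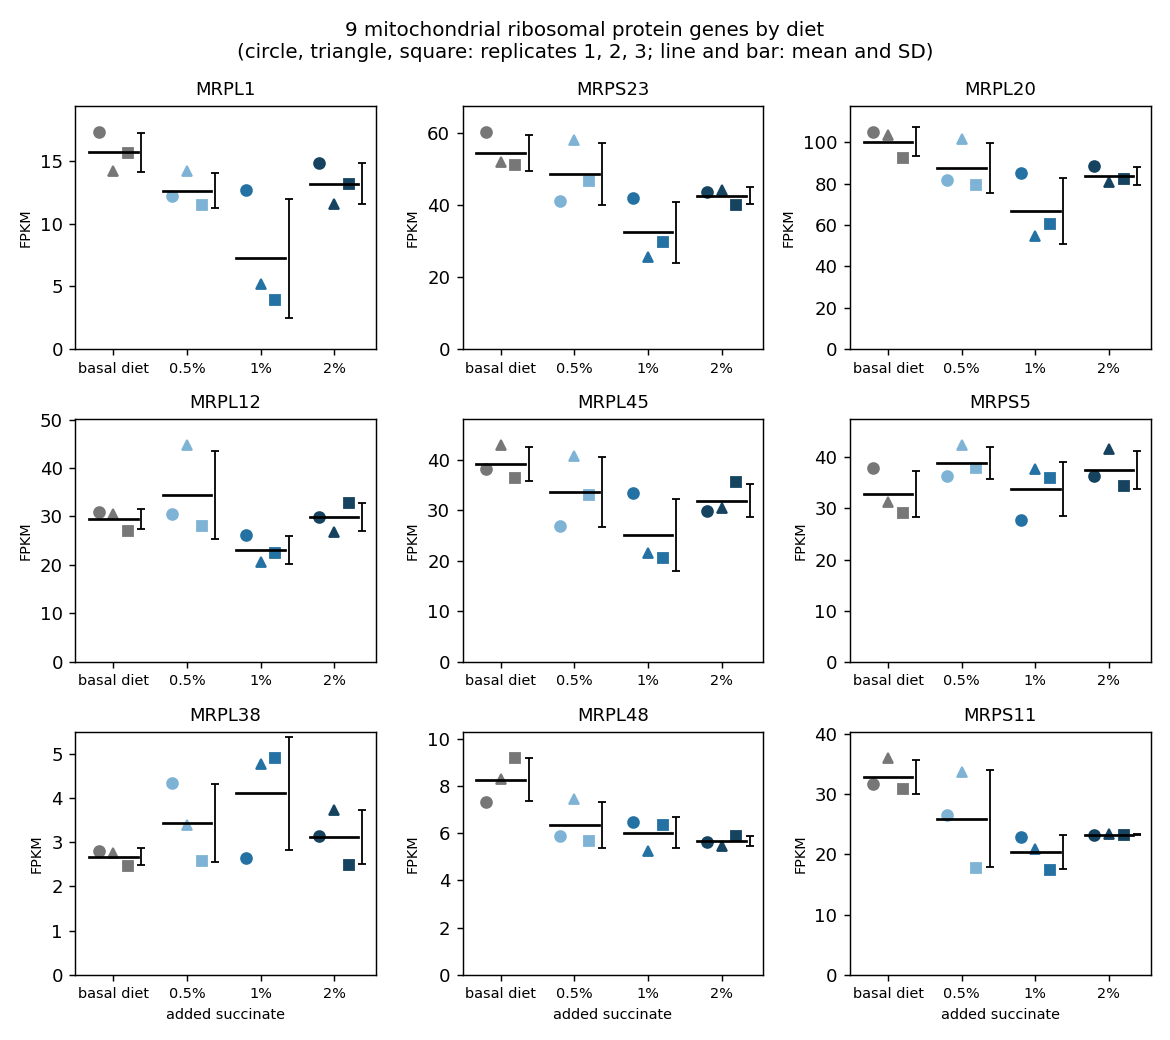
FPKM of 9 genes by diet in order of succinate dose, each panel with a linear axis from 0; symbols are the 3 replicates, the horizontal line is the mean and the bar the SD. MRPL1, MRPS23 and MRPL20 are lowest in replicates 2 and 3 of the 1% diet, MRPL38 is highest there, and MRPL48 and MRPS11 are below the basal diet at 1% and 2% in all replicates.

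At 2% succinate the genes of the mitochondrial ribosome were close to the basal diet. The median log2 difference was −0.08, against −0.11 for other genes of similar length and −0.0036 for all genes tested, and 49 of 75 genes were lower, against 50.7% of all genes. With the length trend removed the median was 0.03, with 43 of 75 genes higher and 32 lower, against 51.1% of all genes lower. No gene passed the adjusted threshold in the limma fit, among the 75 or among all genes (0.00%). At an unadjusted p under 0.05, 2 genes were lower and 0 higher, against 1.60% and 1.57% of all genes, and limma-voom also gave 2 of the 75, against 2.98% of all genes. With the length trend removed, 2 were lower and 3 higher, against 1.67% and 1.90% of all genes. A fit of only the 2% and basal diet libraries gave 11 of the 75 (14.7%), 9 lower and 2 higher, against 7.87% of all genes, and none passed its adjusted threshold. The libraries did not overlap for 12 genes, 10 lower and 2 higher at 2%, against 6.75% and 7.43% of all genes. In the 2% libraries the macrophage markers summed to 71.7 to 85.9 FPKM and those of dividing cells to 19.9 to 26.8 FPKM. The first lay below and the second above the basal diet ranges given above. Stratified epithelium markers summed to 0.306 to 0.457 FPKM, also above theirs. The sums for smooth muscle, adipocytes, skeletal muscle, red blood cells, and enteric neurons and glia overlapped the basal diet. The part of all these cells in the values of the mitochondrial ribosome was not tested.

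MRPL48 and MRPS11 were the 2 lower genes, also with the length trend removed, where the 3 higher ones were MRPL33, MRPL52 and MRPL57. MRPL48, a protein of the central protuberance related to ribosomal protein S10, was at 5.62, 5.48 and 5.89 FPKM in the 2% libraries and at 7.34, 8.31 and 9.20 FPKM in the basal diet libraries. The log2 difference was −0.47 (SE 0.15, adjusted p = 0.9993), and −0.36 (SE 0.15) with the length trend removed. MRPS11, the counterpart of bacterial S11 on the platform of the small subunit, was at 23.2, 23.4 and 23.3 FPKM in the 2% libraries and at 31.8, 36.04 and 30.8 FPKM in the basal diet libraries. Its difference was −0.48 (SE 0.20, adjusted p = 0.9993), and −0.36 (SE 0.16) with the length trend removed. In neither gene did any 2% library reach the lowest basal diet library.

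Both genes also had low values at the other doses. MRPL48 was at 6.48, 5.26 and 6.34 FPKM at 1%, below all 3 basal diet libraries, and at 5.88, 7.47 and 5.69 FPKM at 0.5%, where replicate 2 lay within the basal diet range. MRPS11 was at 22.9, 20.9 and 17.3 FPKM at 1%, below all 3, and at 26.6, 33.6 and 17.7 FPKM at 0.5%, with overlap. The differences at 1% with the trend removed were 0.03 (SE 0.15) for MRPL48 and −0.23 (SE 0.16) for MRPS11. The 3 dose comparisons share the same basal diet libraries, so these values are not independent of each other.

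The other genes whose 2% libraries lay below the basal diet were MRPL10, MRPL11, MRPL17, MRPL20, MRPL45, MRPS15, MRPS23 and MRPS6. MRPS6, the counterpart of bacterial S6, was at 32.96, 26.3 and 27.8 FPKM in the 2% libraries and at 35.6, 53.2 and 33.8 FPKM in the basal diet libraries (log2 difference −0.46, SE 0.23). MRPS18A had a difference of −0.41 (SE 0.21) at 2%. The 2 genes with higher and separate libraries were MRPL33 and MRPS31. MRPL33 was at 7.46, 8.02 and 6.75 FPKM in the 2% libraries, against 5.68, 5.77 and 5.67 FPKM in the basal diet libraries (0.32, SE 0.19, or 0.53, SE 0.21, with the length trend removed). MRPS31 was at 15.6, 13.8 and 19.0 FPKM in the 2% libraries, against 13.2, 11.6 and 12.2 FPKM in the basal diet libraries (0.35, SE 0.20).

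At 0.5% succinate the genes were split evenly, with 36 lower and 39 higher than in the basal diet and a median log2 difference of 0.0008. Other genes of similar length had a median of −0.06 and all genes tested one of −0.11, with 70.6% of all genes lower. Scaling the libraries by the trimmed mean of M values moved the median of all genes at this dose from −0.11 to 0.0015, and that of the 75 genes to 0.13, with 56 higher, so the direction at 0.5% rests on the scaling. Removing the length trend gave a median of 0.04, with 43 higher and 32 lower, against 52.5% of all genes lower. No gene passed the adjusted threshold in the limma fit, among the 75 or among all genes (0.00%). At an unadjusted p under 0.05, 1 gene, MRPL48, was lower and 0 were higher, against 3.70% and 0.943% of all genes, and limma-voom gave 0 of the 75, against 4.75% of all genes. A fit of only the 0.5% and basal diet libraries also gave 0, against 4.85%. With the length trend removed, 1 gene, MRPS11, was lower and 3, MRPL4, MRPL43 and MRPL57, were higher, against 1.71% and 2.54% of all genes. Scaling by the trimmed mean of M values or by quantiles gave 1 gene, MRPL4, which was higher, against 3.92% and 3.63% of all genes in either direction. Which genes are called at 0.5%, and in which direction, thus rests on the scaling.

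Summed markers of several cell types stood apart from the basal diet at this dose. The smooth muscle markers summed to 41743 to 55469 FPKM in the 0.5% libraries and to 30300 to 34701 FPKM in the basal diet libraries. The macrophage markers summed to 38.2 to 92.8 FPKM in the 0.5% libraries and to 104.6 to 170.9 FPKM in the basal diet libraries. The 5 skeletal muscle markers summed to 133.6 to 185.4 FPKM in the 0.5% libraries and to 86.0 to 129.3 FPKM in the basal diet libraries. That sum was mostly the level of ACTA1, an actin gene that averaged 109 FPKM over all libraries. MYH2 averaged 4.28 FPKM, and MYH1, CKM and MYLPF averaged at most 1.88 FPKM. Whether these scarcer markers moved with ACTA1 was not tested. The markers of dividing cells summed to 4.91 to 30.05 FPKM in the 0.5% libraries and to 2.55 to 4.22 FPKM in the basal diet libraries. No gene of these lists was at 0 in all libraries, none of the 4 sums overlapped the basal diet, and their part in the values of the mitochondrial ribosome was not tested. The sums for adipocytes, red blood cells, stratified epithelium, and enteric neurons and glia at 0.5% did overlap the basal diet.

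MRPL48 had a log2 difference of −0.34 (SE 0.15) at 0.5%, or −0.31 (SE 0.15) with the length trend removed, and MRPS11 one of −0.37 (SE 0.20), or −0.34 (SE 0.16). MRPL4, the counterpart of bacterial L4, which lines the exit tunnel, was at 54.7, 61.3 and 44.8 FPKM in the 0.5% libraries and at 43.9, 44.8 and 39.4 FPKM in the basal diet libraries. Its difference was 0.31 (SE 0.15, adjusted p = 0.8826), and replicate 3 reached no higher than the highest basal diet library. MRPS5 had a difference of 0.24 (SE 0.16) and MRPL35 one of −0.25 (SE 0.19). The libraries did not overlap for 3 genes, MRPL15, MRPL47 and MRPS25, all lower at 0.5%, against 10.4% of all genes lower and 1.76% higher.

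The test for any difference among the 4 diets passed 0 of the 75 genes and 0 of all genes tested (0.00%), with a lowest adjusted p of 0.3962. At an unadjusted p under 0.05 it gave 22 of the 75 (29.3%), against 12.6% of all genes, and limma-voom gave 16, against 11.9%. With the length trend removed it gave 7 (9.33%), against 6.65% of all genes. It gave 50 without replicate 1 of the 1% diet, against 31.5% of all genes, and 9 each without replicate 2 (6.06%) and without replicate 3 (6.74%). The 5 smallest p belonged to MRPS21, MRPL32, MRPL11, MRPL1 and MRPS23. MRPS21, the counterpart of bacterial S21, was at 30.1, 20.9 and 21.1 FPKM at 1%, against 38.5, 32.7 and 31.5 FPKM in the basal diet libraries, while its levels at 0.5% (37.3, 38.2 and 40.1 FPKM) and at 2% (33.8, 34.2 and 40.1 FPKM) overlapped those of the basal diet. Without replicate 1 of the 1% diet, 24 of the 75 passed the adjusted threshold, against 11.1% of all genes.

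The slope on the succinate percentage passed 0 of the 75 and 0 of all genes tested (0.00%), with a lowest adjusted p of 0.9998. At an unadjusted p under 0.05, 2 genes had a slope below 0 and 0 had one above it, against 1.35% and 1.86% of all genes, and limma-voom also gave 2, against 3.28%. The 2 genes were MRPL48, with a slope of −0.21 (SE 0.08) per percent succinate, and MRPS6, with −0.31 (SE 0.13), both on the log2(FPKM + 1) scale. Of the 75 slopes, 55 were below 0, against 44.4% of all genes, and 33 were with the length trend removed, against 50.7%. In that fit 1 gene, MRPS6 (−0.23, SE 0.09), had a slope below 0 at an unadjusted p under 0.05, against 1.69% of all genes. In the same fit 3 genes, MRPL33, MRPL51 and MRPL52, had one above 0, against 1.98%. MRPL48 was no longer called, so which genes are called rests on the length trend.

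The rest of the mitochondrial translation machinery was set beside these genes through lists chosen with earlier results of these data known. No gene of any list passed the adjusted threshold at any dose, against 0.00% of all genes tested. A list of 7 genes with other symbols held proteins of the mitoribosome or tied to it. They were DAP3, PTCD3, CHCHD1, AURKAIP1, GADD45GIP1, NDUFAB1 and OXA1L, and not all are parts of the ribosome itself. The list had a median log2 difference of −0.36 at 1%, or −0.05 with the length trend removed. All 7 were lower at 1%, against 54.6% of all genes tested. CHCHD1, a small subunit protein, was at 17.7 ± 5.93 FPKM in the 1% libraries and at 30.9 ± 4.86 FPKM in the basal diet libraries (SD, n = 3 each), a log2 difference of −0.80 (adjusted p = 0.1975). DAP3, a GTP-binding small subunit protein, had a difference of −0.36 (SE 0.16), and OXA1L, the insertase that receives new proteins from the ribosome, one of −0.15 (SE 0.21).

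The 14 tested translation factors were all lower at 1%, against 54.6% of all genes tested. Their median was −0.35, or −0.22 with the length trend removed, and their median length was 2725 bases. SLIRP, which with LRPPRC stabilises mitochondrial mRNAs, was at 35.5 ± 14.8 FPKM in the 1% libraries and at 80.2 ± 14.3 FPKM in the basal diet libraries, a log2 difference of −1.22 (adjusted p = 0.1975). MTFMT, which formylates the initiator transfer RNA, was at 6.95 ± 0.899 FPKM in the 1% libraries and at 9.88 ± 0.437 FPKM in the basal diet libraries (−0.46, adjusted p = 0.1975). Of the 14, 5 were lower and 0 higher at an unadjusted p under 0.05, against 12.1% and 7.33% of all genes. The 23 assembly factors had a median of −0.06, with 15 lower and 8 higher. At an unadjusted p under 0.05, 5 were lower and 0 higher, against the same shares of all genes. Among these 5 were NGRN (−0.45), FASTKD2 (−0.47) and MALSU1 (−0.56). Whether the 2 lists differ was not tested. The 16 mitochondrial aminoacyl-tRNA synthetases had a median of −0.02, with 9 lower and 7 higher. Their median lengths were 2197 and 3478 bases.

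Lists outside translation gave medians on both sides of 0. The 9 genes of mitochondrial DNA upkeep and transcription had a median of −0.22 at 1%, with 6 lower. The 9 regulators of mitochondrial biogenesis had one of 0.03, with 4 lower, against 54.6% of all genes tested. PPARGC1B, a coactivator of mitochondrial genes, was at 5.34 ± 2.56 FPKM in the 1% libraries and at 2.27 ± 0.506 FPKM in the basal diet libraries, a log2 difference of 0.87 (adjusted p = 0.1975). The 12 tested mRNAs encoded by mitochondrial DNA, a list added after values were seen, had a median of −0.32, or 0.09 with the length trend removed. The 74 tested cytosolic ribosomal protein genes had a median of −0.82, with all 74 lower, and their median length was 636 bases. Their median with the length trend removed was −0.30, against −0.04 for the mitochondrial ribosome.

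**Figure D5:**
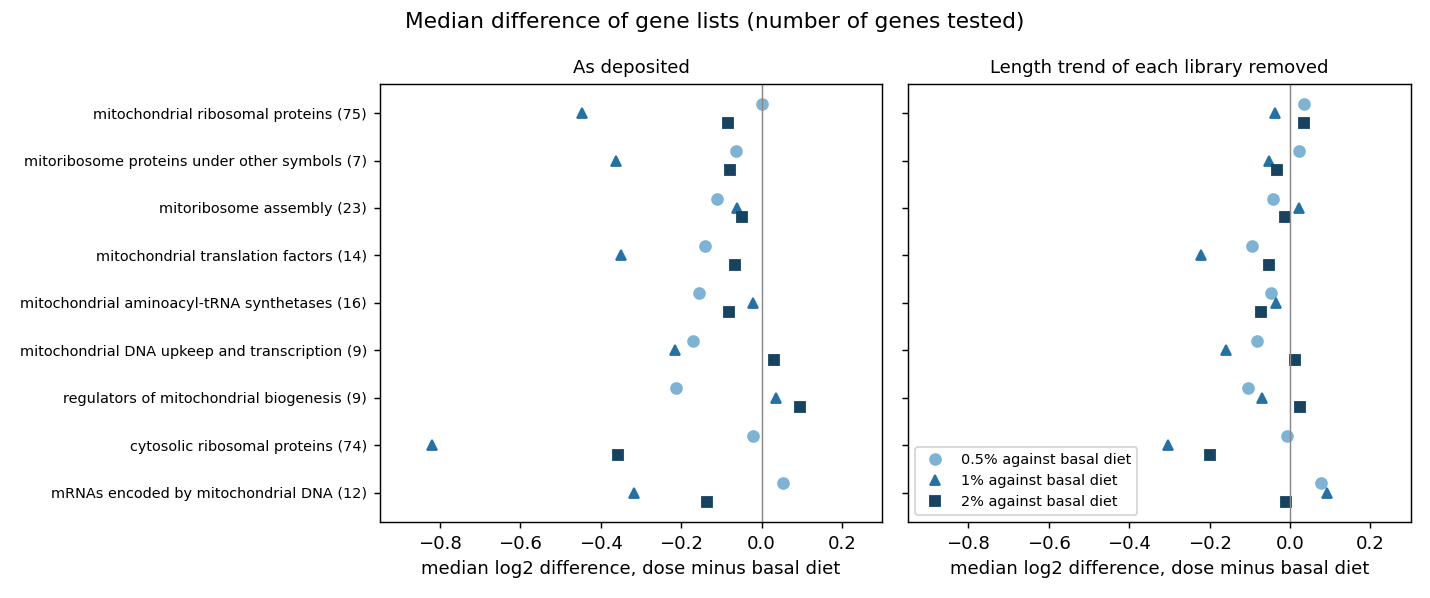
Median log2 difference of each gene list for each dose against the basal diet, as deposited at left and with each library's length trend removed at right; the number of genes tested stands beside each name. The mitochondrial ribosome moves from −0.45 to −0.04 at 1% when the trend is removed, and the cytosolic ribosomal proteins from −0.82 to −0.30.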

How the data were processed

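RNA was sequenced in 12 libraries of Tan sheep. The submitters' processing notes name HTSeq 0.9.1, HISAT2 2.1.0 and cutadapt 1.15 as tools; the genome build and strand setting are not given in the sources used here. The deposited values are FPKM made by the authors for 21257 genes, and positions are those of the file. FPKM was multiplied by length and divided by the smallest positive product of the library, taken as 1 read. This gave whole numbers for 100% of the positive entries, with a tolerance of 0.01 read. The reads and library totals given here rest on that unit. The unit set the test: limma 3.58.1 (R 4.3.3, statmod 1.5.0), with an intensity trend and robust moderation, on log2(FPKM + 1), for genes that reached 1 FPKM in 3 or more libraries. The pseudocount of 1 understates differences of scarce genes. The 4 diets were fitted together over 12 libraries, with two-sided tests, Benjamini-Hochberg adjustment over 12095 genes and a threshold of 0.05. An exact test of 3 libraries against 3 cannot go below 0.1, so none is given. The length trend was a lowess curve of each library's deviation on log length. The intervals and the floor of 3 reads cover counting error only.

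Members and lists were chosen with earlier results of these data known. Named genes were the 4 highest and 4 lowest in mean level, the 5 smallest p per comparison, the 3 shortest and 3 longest, and a set with known roles. Genes given by non-overlap, by a call under an alternative or by their level at 1%, MRPL52 and MRPS5 among them, and genes named beside the lists were in part chosen after their values were seen. A RefSeq gene table (ARS-UI_Ramb_v3.0) held 74 of the 76 genes and gave chromosomes. No 2 libraries agreed within sampling noise. Alternatives were another pseudocount, other filters, scaling by the trimmed mean of M values or quantiles, removal of the length trend, limma-voom, a replicate block, only the diets compared, and libraries left out. The fit was tested on simulated data.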

Additional observations from a re-analysis of the deposited data

How the results depend on the processing

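No gene of the mitochondrial ribosome passed the threshold at 0.5% or 2% or for the slope under any alternative run. At 1%, the number that passed was 0 to 36 over the fits that leave out 1 library, with 36 only without replicate 1 of the 1% diet, and for any difference among the diets it was 0 to 24, with 24 only in that same fit; the cause was not tested. Without that replicate, MRPS23 (−0.95), MRPL1 (−1.60), MRPL32 (−0.81), MRPL35 (−0.83) and MRPL20 (−0.79) passed. The count at an unadjusted p under 0.05 at 1%, 33 as reported, was 17 without replicate 3 and 18 without replicate 2 of the 1% diet (8.86% and 10.2% of all genes), 20 without replicate 1 of the basal diet (13.3%), 52 without replicate 1 of the 1% diet (36.9%) and 8 with the length trend removed (12.5%). The median at 1% was −0.0378 with the length trend removed and −0.1145 without replicates 2 and 3 of the 1% diet, and at 2% it was 0.0347 with the length trend removed. Over the fits that leave out 1 library, the median ran from −0.095 to 0.0699 at 0.5%, from −0.6216 to −0.3445 at 1% and from −0.1421 to −0.0195 at 2%. The 0.5% median was −0.0950 without replicate 2 of that diet and 0.0699 without replicate 3.

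Same-numbered libraries of different diets had correlations of −0.33 to 0.26 (median −0.02, 5 of 18 over 0.1). Libraries with other numbers had −0.27 to 0.26 (median 0.05, 10 of 36 over 0.1). The numbers thus gave no sign of pairing, but so few libraries per diet cannot settle whether one exists. With the replicate block, 0 genes passed, the medians were 0.0008, −0.4465 and −0.0840 at the 3 doses, and 37 genes were at an unadjusted p under 0.05 at 1% (18.5% of all genes). Depth limits the scarce genes: MRPL33 had 26 to 74 reads per library, MRPL36 had 37 to 129 and MRPL38 had 54 to 114.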

Other observations

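The file also holds 14 genes with LOC numbers that its own descriptions name as mitochondrial ribosomal proteins. They have no MRPL or MRPS symbol and stand outside the counts above. Each is called here a copy of the gene of the protein named. Of these, 4 had 0 reads in all libraries and 4 reached 1 FPKM. LOC101119680, named as a copy of MRPS33, had 30, 18 and 33 reads in the basal diet libraries, 11, 6 and 2 at 0.5%, 4, 3 and 2 at 1% and 1, 1 and 4 at 2%. All 9 succinate libraries lay below all 3 basal diet libraries. MRPS33 itself had 725 to 1886 reads per library, so the copy held few of the reads. LOC101119680 passed the filter on low values only through the basal diet, so its test is not given, and it was singled out after its values were seen.

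LOC114111248, named as a copy of MRPL13, was at 10.7 FPKM in replicate 2 of the basal diet and at most 1.40 FPKM in each other library. In that library MRPL13 was at 29.2 FPKM, against 44.0 and 34.6 FPKM in the other basal diet libraries. LOC105603509, named as a copy of MRPL16, ran from 0.665 to 7.58 FPKM. LOC101119765, named as a copy of MRPL15, ran from 2.71 to 7.32 FPKM with a mean of 4.68 FPKM, while MRPL15 itself averaged 18.8 FPKM. How reads are split between these copies and their parent genes was not tested.

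Outside the mitochondrial ribosome, ESRRA, a nuclear receptor of mitochondrial genes, was at 22.2 ± 1.24 FPKM in the 2% libraries and at 15.8 ± 1.08 FPKM in the basal diet libraries (SD, n = 3 each). PPARGC1A, a coactivator of that receptor, was at 19.1 ± 6.57 FPKM in the 2% libraries and at 11.98 ± 2.90 FPKM in the basal diet libraries. Neither gene passed the adjusted threshold at 2% in the limma fit (adjusted p = 0.9993 for both). At 0.5%, PPARGC1A went the other way, at 7.63 ± 4.10 FPKM, and did not pass either (adjusted p = 0.8826).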
